A study of Mus musculus with 17 samples.

Results

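The 32 genes described here encode the major histocompatibility complex (MHC) molecules of the mouse, the machinery that supplies them with peptides, and the factors that switch them on. They were chosen by name, by their known role, and all 32 of them were found among the 55385 genes counted, and all 32 passed the filter on low counts. They comprise 9 class I chains, 5 peptide loading genes, 5 proteasome genes, 8 class II genes and 5 transcriptional regulators.

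Hippocampal RNA came from 17 mice, 1 library per mouse. In 5 mice the Dp16 duplication was carried together with the normal dosage of the interferon receptor genes (Dp16_2xIFNRs, 3 females and 2 males, 17.7 to 18.0 weeks old). Dp16 mice with the duplication alone numbered 6 (3 females and 3 males, 17.1 to 18.0 weeks), and wild-type C57BL/6J mice (WT) also numbered 6 (3 females and 3 males, 17.1 to 18.0 weeks). The duplication gives an extra copy of a segment of mouse chromosome 16 that corresponds to part of human chromosome 21, and it is carried in every cell of the mouse. The segment holds the receptor chain genes Ifnar1, Ifnar2, Ifngr2 and Il10rb. None of the 32 genes lies in it: 20 of them lie on chromosome 17, and Ciita, the 1 gene on chromosome 16 (10480059 to 10528418, GRCm38), lies outside the segment (75540514 to 97962622). The comparisons ask whether this gene set differs in the hippocampus with the duplication, and whether it differs when the receptor genes are back at their normal number.

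Class I molecules pair a heavy chain with beta-2 microglobulin and show peptides from inside the cell. The immunoproteasome cuts those peptides, the TAP transporter carries them into the endoplasmic reticulum, and tapasin helps to load them. Class II molecules, made of an alpha and a beta chain that travel with the invariant chain Cd74, show peptides taken up from outside and are made mainly by professional antigen-presenting cells. The RFX complex (Rfx5, Rfxap and Rfxank) binds the promoters of both classes, where Ciita acts as the master switch of class II and Nlrc5 as that of class I. Interferon gamma induces both switches. In the healthy brain class I is low and class II is found chiefly on macrophages of the meninges, vessels and choroid plexus.

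The promoters of 5 of these genes are printed to show which elements, among those that the regulators named below are known to read, each carries. None of the 5 carries all of them. H2-Aa and H2-Eb1 encode class II chains, H2-K1 and B2m the class I molecule, and Rfx5 is the gene whose level differed between the groups. The sequences are RefSeq promoters of build GRCm38.p6, from 250 bases before to 50 bases after the start site, 5′ to 3′ on the strand of the gene. They lie at chr17:34287774-34288073 (minus strand), chr17:34305617-34305916 (plus), chr17:34000298-34000597 (minus), chr2:122147437-122147736 (plus) and chr3:94953858-94954157 (plus). Capitals mark every match, on either strand, to CCAAT (core of the Y box, read by NF-Y), AGCAAC (core of the X1 box, read by RFX), TGACG (core of the X2 box, read by CREB), to an NF-kappaB site (GGGG followed directly by ATTCCC) and to an interferon-stimulated response element (TTTC, NN, TTTC without gaps).
H2-Aa: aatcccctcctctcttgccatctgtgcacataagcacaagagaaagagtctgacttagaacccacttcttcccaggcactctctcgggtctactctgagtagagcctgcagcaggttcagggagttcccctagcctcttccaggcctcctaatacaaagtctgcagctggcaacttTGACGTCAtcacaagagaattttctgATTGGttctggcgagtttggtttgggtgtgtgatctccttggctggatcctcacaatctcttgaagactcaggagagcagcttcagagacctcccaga
H2-Eb1: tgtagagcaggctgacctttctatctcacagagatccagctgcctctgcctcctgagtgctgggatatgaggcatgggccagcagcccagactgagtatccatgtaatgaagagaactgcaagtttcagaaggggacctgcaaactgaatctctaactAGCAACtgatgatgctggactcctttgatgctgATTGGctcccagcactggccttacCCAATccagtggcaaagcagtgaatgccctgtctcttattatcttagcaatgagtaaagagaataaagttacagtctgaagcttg
H2-K1: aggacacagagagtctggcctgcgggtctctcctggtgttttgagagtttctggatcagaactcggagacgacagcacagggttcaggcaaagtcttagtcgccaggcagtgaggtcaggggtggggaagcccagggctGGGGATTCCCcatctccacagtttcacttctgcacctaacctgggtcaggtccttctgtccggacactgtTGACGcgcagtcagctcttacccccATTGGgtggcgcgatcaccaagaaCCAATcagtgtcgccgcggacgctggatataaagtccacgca
B2m: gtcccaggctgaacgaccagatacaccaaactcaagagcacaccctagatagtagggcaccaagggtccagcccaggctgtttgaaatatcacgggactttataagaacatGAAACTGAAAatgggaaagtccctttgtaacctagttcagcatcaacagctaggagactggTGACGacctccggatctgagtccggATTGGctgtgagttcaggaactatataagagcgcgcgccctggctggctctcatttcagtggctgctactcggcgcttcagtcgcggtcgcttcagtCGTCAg
Rfx5: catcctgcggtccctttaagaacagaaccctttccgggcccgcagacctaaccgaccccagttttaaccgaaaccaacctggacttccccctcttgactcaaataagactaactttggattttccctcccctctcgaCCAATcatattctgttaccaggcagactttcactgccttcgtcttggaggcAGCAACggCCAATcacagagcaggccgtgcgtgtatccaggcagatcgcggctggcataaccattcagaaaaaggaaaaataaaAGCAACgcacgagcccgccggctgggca

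In the H2-Aa promoter, TGACG matched on both strands in an overlapping pair starting at positions -74 and -71, and CCAAT matched on the opposite strand at -48. The H2-Eb1 promoter held AGCAAC at -92 and CCAAT at -59 and -35. The H2-K1 promoter held the NF-kappaB site at -111 and TGACG at -41, and that of B2m held the response element at -139 and TGACG at -78. The Rfx5 promoter itself held CCAAT at -113 and -54 and AGCAAC at -62 and 23. Of the 32 genes, 25 had an entry among 32851 promoters; Tap2, Tapbpl, Nlrc5, H2-Ab1, Cd74, Ciita and Rfxap had none. CCAAT was found in 20 of the 25, against 37.4% of all promoters, and AGCAAC in 6 of the 25, against 14.8%. TGACG was found in 11 of the 25, against 20.8%. The NF-kappaB site was found in 4 of the 25 (H2-D1, H2-K1, H2-Q6 and H2-Q7), against 0.107%, and the response element in 5 of the 25, against 3.44%. The 25 genes have 28 promoter entries, and a gene counts once if any of its entries matches, while the percentages are of all entries. Several of these genes are close copies of each other, so their promoters are not independent, and a match of letters does not show that a factor binds.

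Per length of gene, class I and the proteasome activator dominated. Over the 17 mice, B2m, the light chain shared by the class I molecules, averaged 107 RPKM (reads per kilobase of gene and M reads, range 87.7 to 151). Next came Psme1, a subunit of the PA28 proteasome activator, with 26.5 RPKM (23.1 to 29). The classical class I heavy chains H2-K1 and H2-D1 followed with 25.2 RPKM (17.4 to 33.4) and 23.9 RPKM (16.1 to 35.8). The ranges of Psme1, H2-K1 and H2-D1 overlapped, while the lowest B2m value lay above every value of the other 31 genes. Cd74 was the most abundant class II gene with 7.26 RPKM (2.46 to 15.7), ahead of the peptide exchange chain H2-DMa (4.2 RPKM, 3.19 to 4.98) and the class II chains H2-Aa (3.61 RPKM), H2-Ab1 (3.31 RPKM) and H2-Eb1 (2.45 RPKM). The ranges of these 3 chains overlapped. Within single mice H2-Aa was above H2-Eb1 in every mouse. H2-Ab1 was above H2-Eb1 in every mouse but Dp16 replicate 6 (0.686 against 1.05 RPKM). Which of H2-Aa and H2-Ab1 was higher differed between mice. The 2 master switches were near the bottom: Nlrc5 averaged 0.175 RPKM (0.0829 to 0.289) and Ciita 0.0626 RPKM (0.0187 to 0.105), the lowest of the set. Rfxap (14.3 RPKM), Rfxank (3.57 RPKM) and Rfx5 (3.22 RPKM), which many cell types make, were all above both switches.

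**Figure D1:**
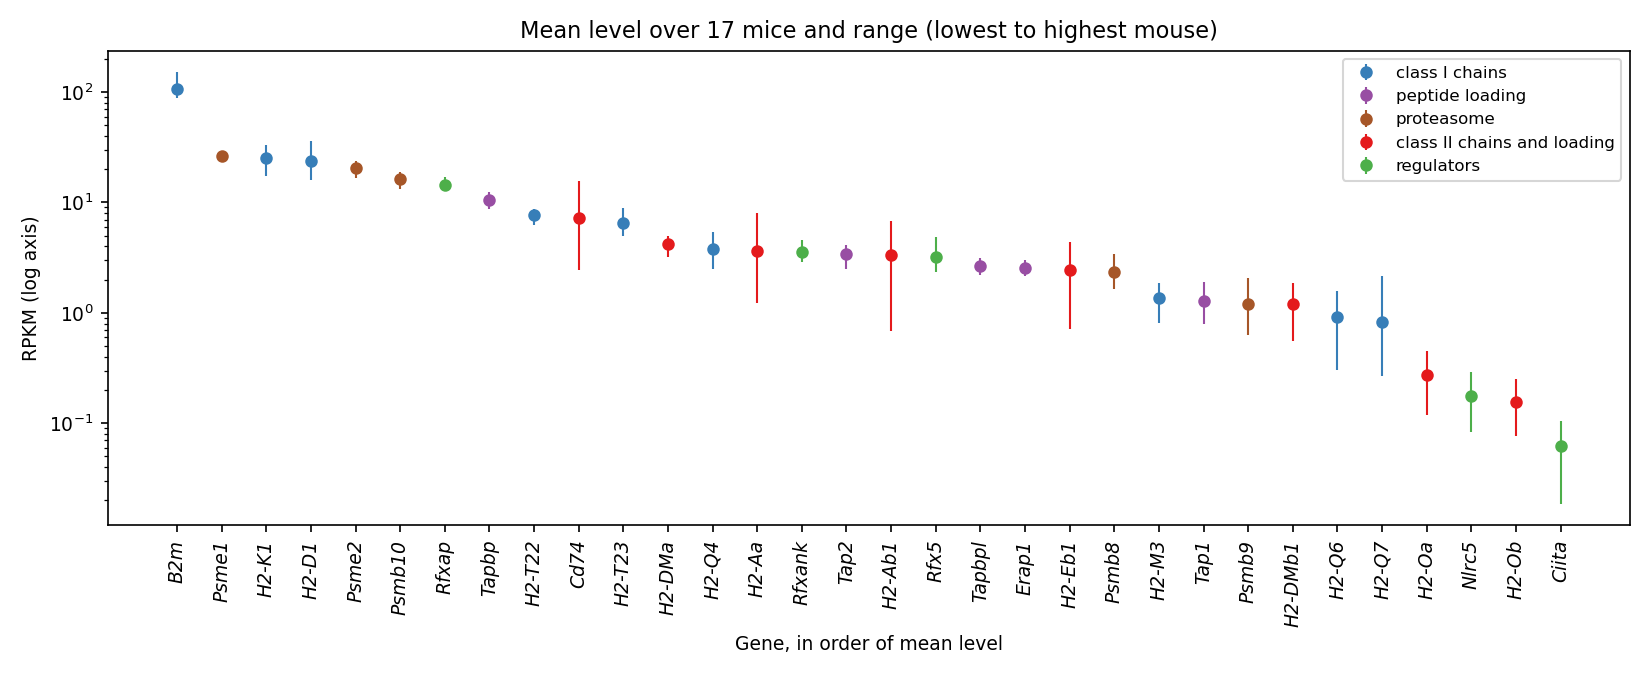
Level of each of the 32 genes per length, in RPKM on a log axis, ordered by the mean over 17 mice (points) with the lowest and highest mouse (lines), coloured by role. B2m stands alone at 107 RPKM, Ciita is lowest at 0.0626 RPKM, and Cd74 and the class II chains have the long lines of genes that vary between mice.

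The genes differed widely in how much they varied between mice of one group. The coefficient of variation within groups ran from 6.19% for Psme1 to 48.7% for H2-Q7, a class I gene of the Qa region. For H2-Eb1, H2-Ab1, Cd74 and H2-Aa it was 35.8%, 38.1%, 39.6% and 41.3%, while counting error alone would give 8.79%, 8.88%, 5.55% and 8.81%. H2-DMa varied far less (9.45%, where counting error alone would give 5.3%), and so did Rfx5 (10.3%, counting error alone 4.49%).

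Some features of the libraries bear on these results. Totals lay between 30.4 and 33.1 M counts in all groups, so that depth was alike. The 4 receptor genes followed the labels: in Dp16 mice all 4 rose over WT by 0.54 to 0.66 on the log2 scale, and in Dp16_2xIFNRs mice none of the 4 differed from WT by the test (edgeR quasi-likelihood, Benjamini-Hochberg), with log2 differences of -0.02 to 0.16. In 3 libraries the summed level of 10 choroid plexus markers was very low: 103 CPM (counts per M) in Dp16_2xIFNRs replicate 5, 68 CPM in Dp16 replicate 6 and 59.4 CPM in WT replicate 6, against 2380 to 6620 CPM in the other 14. Each group thus holds 1 such library, and class II results are given with and without them. The second part of the mouse identifier begins with 0, 4 or 9, a digit whose meaning the labels leave unstated. The 10 mice with 9 comprise 3 Dp16_2xIFNRs, 3 Dp16 and 4 WT mice. Level differences in a piece of tissue cannot tell apart fewer cells of a type and less RNA per cell.

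Of the 32 genes, 1 passed the test across all genes in Dp16 mice against WT, and the same 1 in Dp16_2xIFNRs mice against WT. It was Rfx5, and it was lower in both. In the comparison of Dp16 mice with WT, 0.537% of the 18983 genes tested were called (adjusted p under 0.05; 0.458% higher and 0.079% lower), and in that of Dp16_2xIFNRs mice with WT 0.98% (0.637% higher and 0.342% lower). A single called gene of 32 is read here as a result about that gene, not about the set. In Dp16_2xIFNRs mice against Dp16 mice, 0 of 32 were called by edgeR (0.0158% of all genes), 1 had an unadjusted p under 0.05, and 0 were called by DESeq2. The 2 comparisons with WT share the WT mice, and the 2 with Dp16_2xIFNRs mice share those, so they are not independent of each other.

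Rfx5 encodes the DNA-binding subunit of the RFX complex. It lies on chromosome 3 (94954075 to 94961561, plus strand, GRCm38). The 5 Dp16_2xIFNRs mice had 12.6, 15.2, 15.7, 13.4 and 12.7 CPM, the 6 Dp16 mice ran from 11.8 to 15.8 CPM with a median of 13.4 CPM, and the 6 WT mice from 17.4 to 22.7 CPM with a median of 18.6 CPM. Every mouse with the duplication was below every WT mouse, and mice of the 2 groups with the duplication fell in the same range. Groups that do not overlap in this direction were seen for 0.274% of all genes in Dp16 mice against WT and for 0.969% in Dp16_2xIFNRs mice against WT. On the higher side no gene of the set was clear of WT in Dp16 mice (0.716% of all genes; 0.99% in either direction). In Dp16 mice Rfx5 fell by 0.50 on the log2 scale (SE 0.09, 0.707-fold, edgeR adjusted p = 0.0048). In Dp16_2xIFNRs mice it fell by 0.46 (SE 0.09, 0.73-fold, edgeR adjusted p = 0.0157). The difference between Dp16_2xIFNRs and Dp16 mice was 0.05 (95% interval -0.15 to 0.24, edgeR adjusted p = 0.874), whose upper end is below the 0.50 that separates Dp16 from WT mice.

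The call in Dp16 mice held without each library in turn, and the call in Dp16_2xIFNRs mice did so except without replicate 4 of that group (log2 fold change -0.44, edgeR adjusted p = 0.0597). Within the 10 mice of the identifier series beginning with 9, Rfx5 differed by -0.47 in Dp16 mice (edgeR adjusted p = 0.164) and by -0.44 in Dp16_2xIFNRs mice (edgeR adjusted p = 0.102), so the size of the difference was alike but neither was called in the smaller set. Rfx5 overlaps the antisense gene B230398E01Rik, which had a mean of 1.06 CPM and differed by -0.63 in Dp16 mice (edgeR adjusted p = 0.408) and by -0.60 in Dp16_2xIFNRs mice (adjusted p = 0.242). Whether counting used strand is not given in the sources used here, so reads of the pair may not be fully separated.

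The other 2 subunits of the RFX complex were not called. Rfxap had 31.8, 28, 26.8, 28.9 and 29.5 CPM in Dp16_2xIFNRs mice, 28.3 to 33.7 CPM (median 30.6) in Dp16 mice and 29.9 to 37.1 CPM (median 32.3) in WT mice. These ranges overlapped, and the log2 difference from WT was -0.19 in Dp16_2xIFNRs mice (edgeR adjusted p = 0.154) and -0.10 in Dp16 mice (adjusted p = 0.66). Rfxank, the ankyrin repeat subunit, averaged 12.7 ± 1.06 CPM in Dp16_2xIFNRs mice, 12.6 ± 1.87 CPM in Dp16 mice and 13.6 ± 1.3 CPM in WT mice (SD, n = 5, 6 and 6), with log2 differences from WT of -0.08 in Dp16_2xIFNRs mice (edgeR adjusted p = 0.693) and -0.11 in Dp16 mice (adjusted p = 0.748).

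Nlrc5, the class I switch, was highest in the mice with normalized receptor dosage. They had 2.36, 2.05, 1.71, 1.94 and 1.73 CPM, against 0.673 to 1.62 CPM (median 1.47) in Dp16 mice and 0.88 to 1.6 CPM (median 1.05) in WT mice. All 5 Dp16_2xIFNRs mice were above all 6 Dp16 and all 6 WT mice, a pattern seen in this direction for 0.258% of all genes against Dp16 mice and for 1.2% against WT (2.17% in either direction). The log2 difference was 0.82 against WT (SE 0.22, edgeR adjusted p = 0.0818) and 0.60 against Dp16 mice (SE 0.22, 95% interval 0.13 to 1.06, edgeR adjusted p = 0.433). Neither passed the threshold over all genes, and in Dp16 mice the log2 difference from WT was 0.23 (edgeR adjusted p = 0.786). Nlrc5 was called in Dp16_2xIFNRs mice against WT by DESeq2 (adjusted p = 0.0239).

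Ciita, the class II switch, had the lowest level of the set in RPKM, while in CPM H2-Oa was lower. Dp16_2xIFNRs mice had 0.647, 0.756, 0.698, 0.858 and 0.385 CPM, Dp16 mice 0.159 to 0.68 CPM (median 0.501) and WT mice 0.28 to 0.646 CPM (median 0.415). The groups overlapped, and counting error alone would give a coefficient of variation of 24.8% at this level. The log2 difference was 0.62 in Dp16_2xIFNRs mice against WT (95% interval -0.06 to 1.31, edgeR adjusted p = 0.34), 0.10 in Dp16 mice against WT (adjusted p = 0.946) and 0.52 in Dp16_2xIFNRs against Dp16 mice (adjusted p = 0.56). Ciita overlaps the gene Dexi on the other strand, which had a mean of 32 CPM, so reads of this pair may not be fully separated. Dexi differed by -0.21 in Dp16_2xIFNRs mice (edgeR adjusted p = 0.14) and by -0.12 in Dp16 mice against WT (adjusted p = 0.571).

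**Figure D2:**
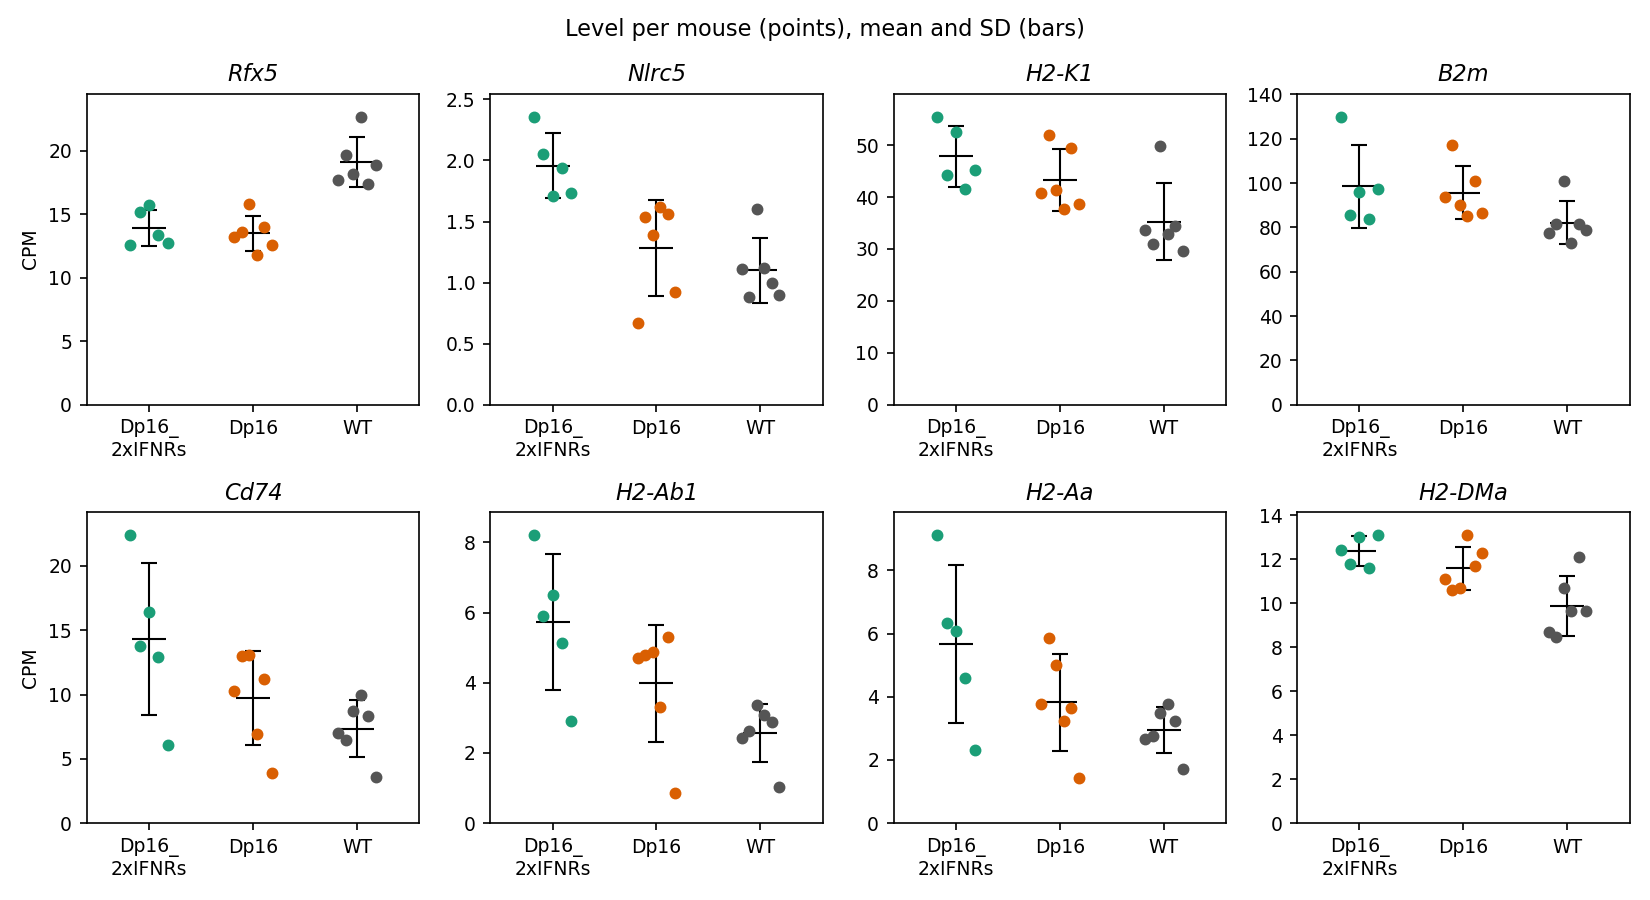
Level in CPM of 8 genes in each mouse (points) with the group mean and SD (bars), for Dp16_2xIFNRs (n = 5), Dp16 (n = 6) and WT (n = 6) mice. For Rfx5 every mouse of the 2 duplication groups lies below the lowest WT mouse at 17.4 CPM, and for Nlrc5 every Dp16_2xIFNRs mouse lies above 1.62 CPM, the highest value of the other groups.

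The classical class I genes were somewhat higher in both groups with the duplication, and edgeR called none of them. H2-K1 had 55.5, 44.3, 52.5, 41.6 and 45.3 CPM in Dp16_2xIFNRs mice, 37.6 to 51.9 CPM (median 41.1) in Dp16 mice and 29.6 to 49.9 CPM (median 33.2) in WT mice. WT replicate 3 alone made the groups overlap, since the other 5 WT mice did not exceed 34.4 CPM. The log2 difference from WT was 0.43 in Dp16_2xIFNRs mice (SE 0.12, edgeR adjusted p = 0.0866) and 0.30 in Dp16 mice (SE 0.11, edgeR adjusted p = 0.405). DESeq2 called H2-K1 in Dp16_2xIFNRs mice against WT (adjusted p = 0.0207), as did edgeR without the filter on low counts (adjusted p = 0.0142). Without WT replicate 3 the differences were 0.56 in Dp16_2xIFNRs mice (edgeR adjusted p = 0.00795) and 0.42 in Dp16 mice, where H2-K1 was not called.

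H2-D1, the other classical heavy chain, showed the same order. Dp16_2xIFNRs mice had 81.2, 52.9, 57.9, 48.7 and 60.6 CPM, Dp16 mice 49.9 to 70.5 CPM (median 54.3) and WT mice 37.4 to 60.8 CPM (median 43.6). All 3 groups overlapped, and the log2 difference from WT was 0.35 in Dp16_2xIFNRs mice (edgeR adjusted p = 0.164) and 0.27 in Dp16 mice (adjusted p = 0.472). B2m had 130, 85.7, 95.8, 83.7 and 97.2 CPM in Dp16_2xIFNRs mice, 85.1 to 117 CPM (median 91.9) in Dp16 mice and 72.8 to 101 CPM (median 80) in WT mice. Again WT replicate 3 was the mouse that overlapped the other groups. The log2 difference of B2m from WT was 0.24 in Dp16_2xIFNRs mice (edgeR adjusted p = 0.224) and 0.22 in Dp16 mice (adjusted p = 0.478).

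Among the non-classical class I genes, H2-Q6 and H2-Q7 had the widest differences and the lowest counts. H2-Q7 had 1.91, 1.26, 3.24, 1.27 and 0.866 CPM in Dp16_2xIFNRs mice, 0.825 to 1.76 CPM (median 1.32) in Dp16 mice and 0.404 to 1.72 CPM (median 0.755) in WT mice. H2-Q6 had 2.91, 2.42, 3.21, 1.75 and 1.64 CPM in Dp16_2xIFNRs mice, 1.4 to 2.45 CPM (median 2.26) in Dp16 mice and 0.621 to 2.85 CPM (median 1.28) in WT mice. The groups overlapped for both genes, and the log2 differences in Dp16_2xIFNRs mice against WT, 0.92 for H2-Q7 (edgeR adjusted p = 0.221) and 0.73 for H2-Q6 (adjusted p = 0.236), were not called. These 2 genes are near-identical copies, as are other H2 genes in part, so their reads may be shared between them and their separate values are uncertain. H2-T22, H2-T23 (the gene of Qa-1) and H2-M3, which presents formylated peptides, stayed within 0.27 of WT on the log2 scale in both groups with the duplication, and none was called. H2-T22 averaged 13.8 ± 0.577 CPM in Dp16_2xIFNRs mice, 13.8 ± 1.31 CPM in Dp16 mice and 13.9 ± 1.2 CPM in WT mice, with a 95% interval for its log2 difference of -0.17 to 0.16 in Dp16_2xIFNRs mice against WT. H2-Q4, another Qa region gene, averaged 7.59 ± 1.38 CPM in Dp16_2xIFNRs mice, 6.85 ± 1.59 CPM in Dp16 mice and 6.06 ± 1.83 CPM in WT mice. As a group, 8 of the 9 class I chains had a positive log2 difference in Dp16_2xIFNRs mice against WT (median 0.32) and 8 of 9 in Dp16 mice against WT (median 0.27), where 51.1% and 48.1% of all genes tested were positive, with medians of 0.004 and -0.006. None of the 9 was called in either comparison by edgeR, and 5 and 3 of them were higher at an unadjusted p under 0.05, where 8.44% and 5.61% of all genes were.

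Of the peptide loading genes none was called in any comparison by edgeR or DESeq2, and their medians were 0.10 in Dp16_2xIFNRs mice against WT and 0.09 in Dp16 mice against WT. Tap2, a chain of the peptide transporter, had 14.3, 12.6, 13.7, 12.6 and 11.4 CPM in Dp16_2xIFNRs mice, 9.39 to 13.9 CPM (median 12.2) in Dp16 mice and 8.59 to 13.1 CPM (median 10.3) in WT mice. The groups overlapped, and the log2 difference was 0.31 in Dp16_2xIFNRs mice against WT (edgeR adjusted p = 0.205). Its partner Tap1 averaged 4.16 ± 0.608 CPM in Dp16_2xIFNRs mice, 3.83 ± 1.02 CPM in Dp16 mice and 3.53 ± 1.13 CPM in WT mice. Tapasin (Tapbp), its relative Tapbpl and the trimming peptidase Erap1 differed from WT by 0.10, -0.19 and 0.07 in Dp16_2xIFNRs mice and by 0.09, -0.11 and 0.01 in Dp16 mice on the log2 scale.

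The inducible subunits of the proteasome lay on both sides of WT, and none was called by edgeR or DESeq2. Psmb9 had 2.78, 1.64, 2.03, 1.62 and 1.99 CPM in Dp16_2xIFNRs mice, 0.979 to 2.16 CPM (median 1.62) in Dp16 mice and 0.822 to 1.8 CPM (median 1.29) in WT mice. Psmb8 had 5.59, 3.46, 4.19, 4.04 and 4.65 CPM in Dp16_2xIFNRs mice, 2.89 to 4.6 CPM (median 3.73) in Dp16 mice and 2.78 to 4.04 CPM (median 3.25) in WT mice. For both, Dp16_2xIFNRs replicate 1 was highest and the groups overlapped. Their log2 differences in Dp16_2xIFNRs mice against WT were 0.61 for Psmb9 (edgeR adjusted p = 0.193) and 0.36 for Psmb8 (adjusted p = 0.216). The subunit Psmb10 lay on the other side, with 23.3, 17, 17, 18 and 22.6 CPM in Dp16_2xIFNRs mice, 18.9 to 23.6 CPM (median 21.8) in Dp16 mice and 21.1 to 25.1 CPM (median 22.4) in WT mice. Of the 5 Dp16_2xIFNRs mice, 3 were below all other mice and the other 2 within the WT range, and the log2 difference from WT was -0.24 (edgeR adjusted p = 0.18). The activator subunits Psme1 and Psme2 differed from WT by 0.03 and -0.005 in Dp16_2xIFNRs mice and by 0.04 and -0.10 in Dp16 mice. For Psme1, the least variable gene of the set, the 95% interval in Dp16_2xIFNRs mice against WT was -0.09 to 0.14.

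**Figure D3:**
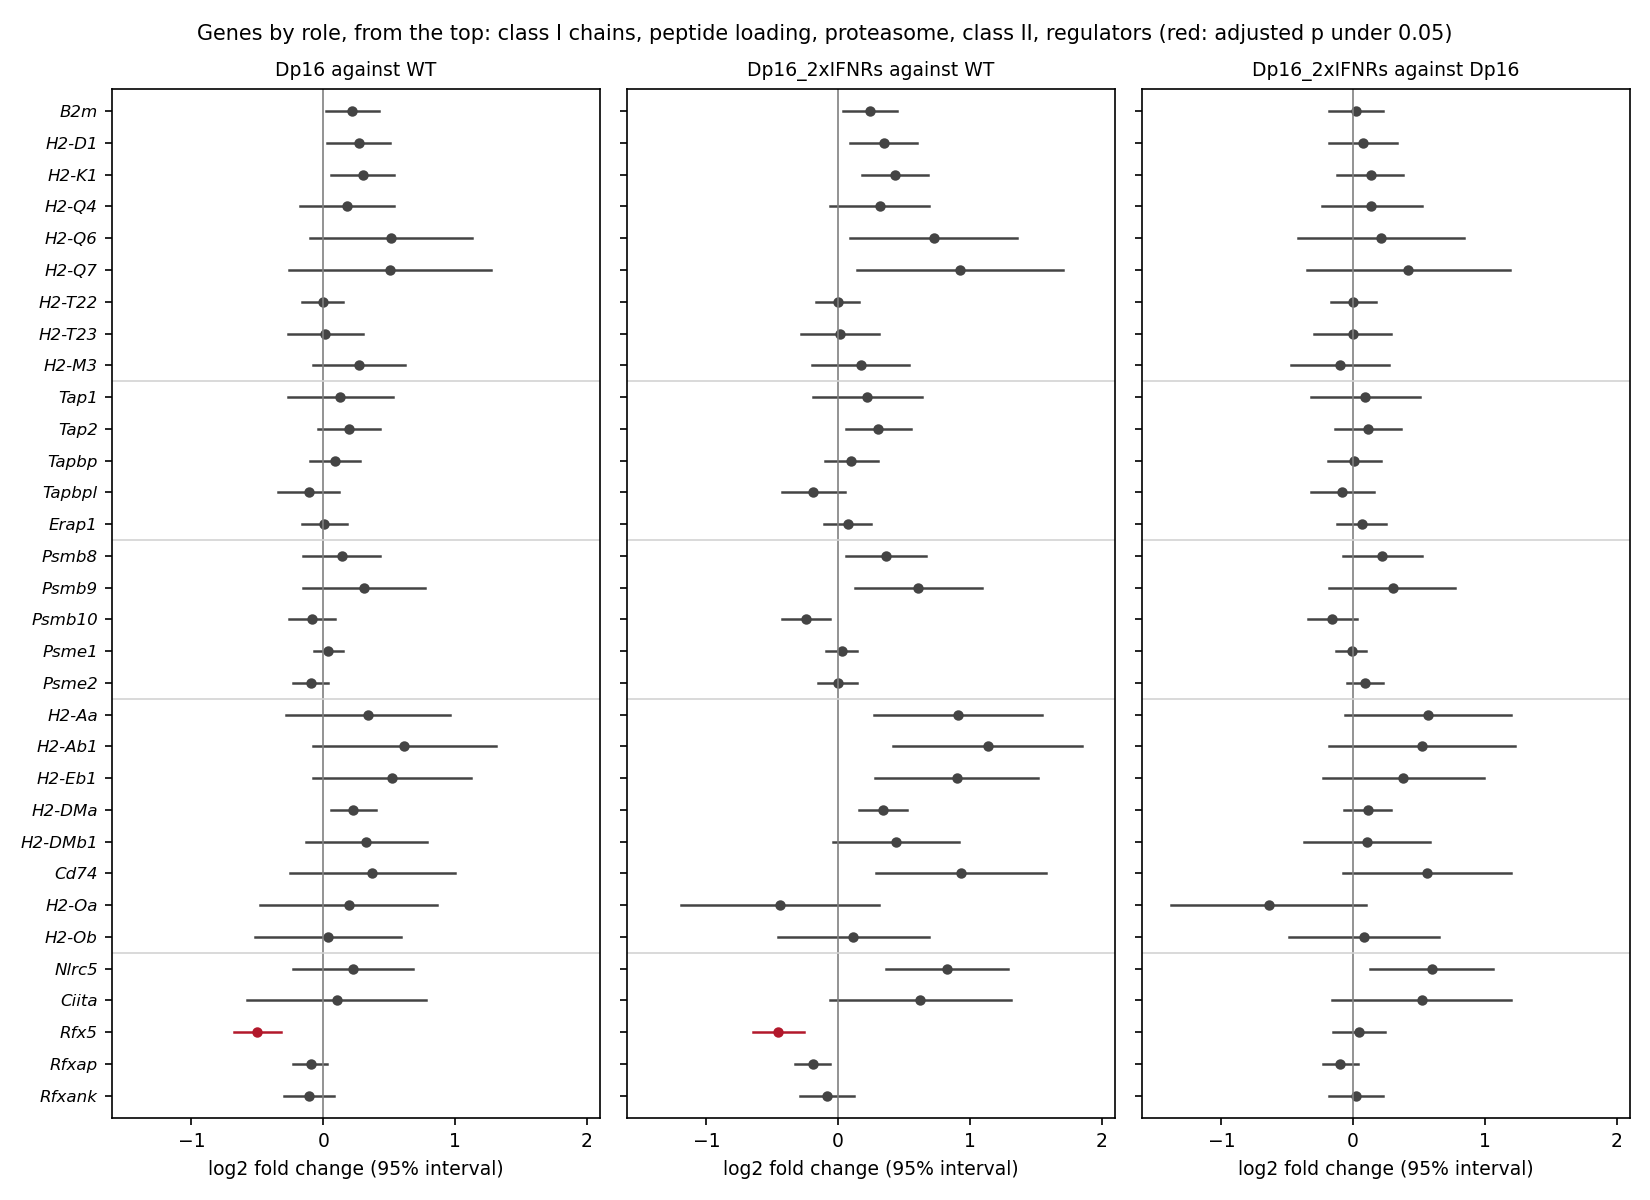
Log2 fold change of each of the 32 genes with its 95% interval (edgeR) in Dp16 against WT, Dp16_2xIFNRs against WT and Dp16_2xIFNRs against Dp16 mice; red marks an adjusted p under 0.05 over all genes. Rfx5 is the 1 red gene, at -0.50 in Dp16 mice and -0.46 in Dp16_2xIFNRs mice against WT, and in Dp16_2xIFNRs against WT mice H2-Ab1 (1.13) and Cd74 (0.94) lie farthest to the right, with wide intervals.

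H2-Ab1 and Cd74 had the highest log2 differences of the set in Dp16_2xIFNRs mice against WT, and the class II chains and Cd74 varied widely between mice of a group. Cd74, the invariant chain, had 22.4, 13.8, 16.4, 12.9 and 6.06 CPM in Dp16_2xIFNRs mice, 3.9 to 13.1 CPM (median 10.7) in Dp16 mice and 3.58 to 10 CPM (median 7.67) in WT mice. H2-Ab1, the beta chain of I-A, had 8.21, 5.89, 6.51, 5.12 and 2.92 CPM in Dp16_2xIFNRs mice, 0.857 to 5.31 CPM (median 4.76) in Dp16 mice and 1.02 to 3.38 CPM (median 2.77) in WT mice. In both genes the 4 Dp16_2xIFNRs mice other than replicate 5 were above every WT mouse, and the lowest mouse of each group was the one with few choroid plexus markers.

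The alpha chain H2-Aa had 9.12, 6.33, 6.09, 4.58 and 2.31 CPM in Dp16_2xIFNRs mice, 1.43 to 5.87 CPM (median 3.69) in Dp16 mice and 1.73 to 3.76 CPM (median 3) in WT mice. H2-Eb1, the beta chain of I-E, had 7.4, 6.46, 6.19, 4.83 and 2.25 CPM in Dp16_2xIFNRs mice, 1.81 to 5.9 CPM (median 4.59) in Dp16 mice and 1.21 to 3.79 CPM (median 2.91) in WT mice. For both, replicate 1 was highest and replicate 5 lowest among Dp16_2xIFNRs mice. The I-E alpha chain gene, which is defective in C57BL/6 mice, was listed at 0 in all 17 libraries.

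None of Cd74, H2-Ab1, H2-Aa and H2-Eb1 was called by edgeR with the filter on low counts. Without that filter edgeR called all 4 in Dp16_2xIFNRs mice against WT (adjusted p of 0.0136 to 0.0358), and DESeq2 called H2-Eb1 (adjusted p = 0.0493). In Dp16_2xIFNRs mice against WT the log2 difference was 1.13 for H2-Ab1 (SE 0.34, 2.19-fold, edgeR adjusted p = 0.117), 0.94 for Cd74 (SE 0.31, adjusted p = 0.146), 0.91 for H2-Aa (adjusted p = 0.151) and 0.90 for H2-Eb1 (adjusted p = 0.144). In Dp16 mice against WT it was 0.61 for H2-Ab1 (95% interval -0.08 to 1.31, edgeR adjusted p = 0.584), 0.37 for Cd74, 0.34 for H2-Aa and 0.52 for H2-Eb1. In Dp16_2xIFNRs against Dp16 mice it was 0.52 for H2-Ab1, 0.56 for Cd74 (95% interval -0.08 to 1.2, edgeR adjusted p = 0.523), 0.57 for H2-Aa and 0.38 for H2-Eb1. All 4 had an unadjusted p under 0.05 in Dp16_2xIFNRs mice against WT, and in the whole set 14 of 32 did so on the higher side, where 8.44% of all genes did, and 3 of 32 on the lower side, where 8.6% did (17% in either direction). In Dp16 mice against WT 4 of 32 did so on the higher side (5.61% of all genes) and 1 on the lower (3.97%; 9.58% in either direction). Some genes of the set varied together between mice, so counts over the set or a role are not counts of independent results.

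These 4 genes were lowest in the mice with few choroid plexus markers. Their summed level in the 3 mice low in choroid plexus markers was 13.5 CPM (Dp16_2xIFNRs), 8 CPM (Dp16) and 7.54 CPM (WT), the lowest of each group. In the other mice it was 27.4 to 47.1 CPM (Dp16_2xIFNRs), 17 to 29.6 CPM (Dp16) and 14.9 to 20.5 CPM (WT), so that the Dp16_2xIFNRs mice then lay above all WT mice. Without the 3 libraries all 4 genes were called in Dp16_2xIFNRs mice against WT, at log2 differences of 1.16 for H2-Ab1 (edgeR adjusted p = 0.000981), 1.01 for Cd74 (adjusted p = 0.0135), 1.03 for H2-Aa (adjusted p = 0.0136) and 0.96 for H2-Eb1 (adjusted p = 0.00324), while Rfx5 was not (log2 difference -0.43, edgeR adjusted p = 0.0707).

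The markers of border-associated macrophages, which sit in the meninges and around vessels and carry class II, had a higher sum in Dp16_2xIFNRs mice than in WT mice. All 10 of these markers were detected in every library, and their summed level was 26.6 to 39.8 CPM in Dp16_2xIFNRs mice, 19.8 to 32.6 CPM in Dp16 mice and 18.7 to 23.1 CPM in WT mice, with no overlap between Dp16_2xIFNRs and WT mice. The Dp16_2xIFNRs mouse (26.6 CPM) and the Dp16 mouse (19.8 CPM) low in choroid plexus markers were also the lowest of their groups in this sum. The WT mouse low in choroid plexus markers (19.1 CPM) was the second lowest of its group. Of the 9 markers tested, 8 had a positive log2 difference in Dp16_2xIFNRs mice against WT (median 0.60), and 5 in Dp16 mice against WT (median 0.05), and 1 was called in each. That was Lyz2, the lysozyme gene, with a mean of 12.6 CPM the largest part of the sum, followed by Mrc1 with 5.34 CPM. Lyz2 was called higher than WT in Dp16_2xIFNRs mice (log2 difference 0.68, edgeR adjusted p = 0.01) and in Dp16 mice (0.60, adjusted p = 0.023). With that summed level as a covariate the class II differences from WT turned negative and were not called, at -0.44 for Cd74 in Dp16_2xIFNRs mice (edgeR adjusted p = 0.622) and -0.52 in Dp16 mice (adjusted p = 0.403), while Rfx5 was called in both (-0.66, adjusted p = 0.0395, in Dp16_2xIFNRs mice and -0.63, adjusted p = 0.0041, in Dp16 mice). Since the covariate itself separates Dp16_2xIFNRs from WT mice, it and that genotype cannot be told apart in this fit. Dp16 replicates 1, 2, 3 and 5 (26.9, 30.5, 32.6 and 31 CPM) were also above every WT mouse in the covariate. Dp16 replicates 4 and 6 (22.8 and 19.8 CPM) were within the WT range. The covariate and the Dp16 genotype are therefore only partly separate. Among 7 markers of meningeal fibroblasts the summed level was 107 to 168 CPM in Dp16_2xIFNRs mice, 84.8 to 147 CPM in Dp16 mice and 84.5 to 122 CPM in WT mice. All 7 had a positive log2 difference in Dp16_2xIFNRs mice against WT (median 0.59). In Dp16 mice against WT 6 did (median 0.23), and none was called in either comparison. The Dp16_2xIFNRs and Dp16 mice low in choroid plexus markers were the lowest of their groups here (107 and 84.8 CPM). The WT one was not (98.3 CPM). The 12 microglial markers summed to 401 to 478 CPM in Dp16_2xIFNRs mice, 415 to 489 CPM in Dp16 mice and 413 to 531 CPM in WT mice, overlapping in all groups. Of these 12, 10 had a negative log2 difference in Dp16_2xIFNRs mice against WT (median -0.07). In Dp16 mice against WT 9 did (median -0.05), and none was called in either comparison. The 8 dendritic cell markers summed to 16.6 to 20.9 CPM in Dp16_2xIFNRs mice, 15.2 to 19.5 CPM in Dp16 mice and 13.6 to 22.1 CPM in WT mice, nearly all of it Flt3 and Zbtb46. The B cell markers summed to at most 1.35 CPM and the T cell markers to at most 2.01 CPM in any mouse. The markers most often at 0 were Ms4a1 of B cells (11 of 17 libraries), Cd3d of T cells (8) and Xcr1 of dendritic cells (8). Others were detected in every library: Cd79a, Cd79b and Pax5 of B cells, and Cd4 and Trac of T cells. So were Flt3, Cd209a, Itgax, Zbtb46 and Batf3 of dendritic cells. The part of these cell types in the class II values was not tested further.

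**Figure D4:**
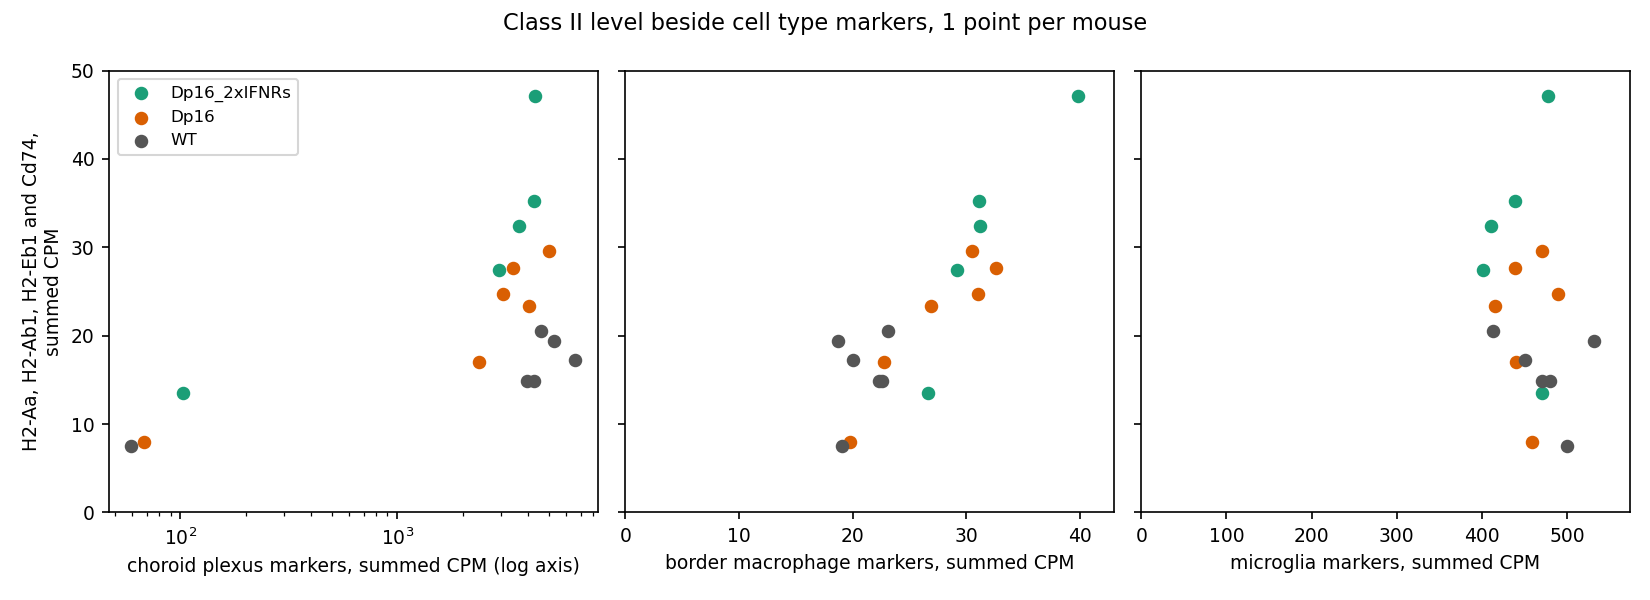
Summed CPM of H2-Aa, H2-Ab1, H2-Eb1 and Cd74 in each mouse (points, coloured by group) against the summed CPM of markers of the choroid plexus (log axis), border macrophages and microglia. The 3 mice at or below 103 CPM of choroid plexus markers have the lowest class II level of their groups, and the Dp16_2xIFNRs mice lie to the right of all WT mice in border macrophage markers.

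The other 4 class II genes load peptides or hold loading back. H2-DMa had 12.4, 11.8, 13, 11.6 and 13.1 CPM in Dp16_2xIFNRs mice, 10.6 to 13.1 CPM (median 11.4) in Dp16 mice and 8.45 to 12.1 CPM (median 9.64) in WT mice. WT replicate 5 was the mouse that overlapped the Dp16_2xIFNRs mice, and H2-DMa was not low in the mice with few choroid plexus markers. The log2 difference from WT was 0.34 in Dp16_2xIFNRs mice (SE 0.09, edgeR adjusted p = 0.0626) and 0.23 in Dp16 mice (SE 0.08, adjusted p = 0.356). H2-DMa shares its locus with Brd2 on the other strand, which had a mean of 199 CPM and log2 differences from WT of -0.20 in Dp16_2xIFNRs mice (edgeR adjusted p = 0.0692) and -0.13 in Dp16 mice. H2-DMb1, its partner chain, averaged 1.89 ± 0.555 CPM in Dp16_2xIFNRs mice, 1.75 ± 0.383 CPM in Dp16 mice and 1.39 ± 0.347 CPM in WT mice. Unlike H2-DMa, it was lowest in each group in the mouse with few choroid plexus markers (1.06, 1.17 and 0.799 CPM). The H2-DM inhibitors H2-Oa and H2-Ob, known from B cells and dendritic cells, were near the floor, at 0.23 ± 0.0827 and 0.594 ± 0.18 CPM in Dp16_2xIFNRs mice, 0.351 ± 0.0971 and 0.548 ± 0.22 CPM in Dp16 mice, and 0.306 ± 0.129 and 0.523 ± 0.109 CPM in WT mice. None of these 4 genes was called in any comparison by edgeR. H2-DMa was called in Dp16_2xIFNRs mice against WT by DESeq2 (adjusted p = 0.0135) and by limma-trend on RPKM (adjusted p = 0.043 with 0.1 added).

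No gene of the set was called between the mice with normal and with raised receptor dosage. In Dp16_2xIFNRs against Dp16 mice, 24 of 32 log2 differences were positive (47.9% of all genes), with a median of 0.09 (all genes -0.007). By role the medians were 0.07 for class I chains, 0.07 for peptide loading, 0.09 for the proteasome, 0.25 for class II and 0.05 for the regulators. The 1 gene with an unadjusted p under 0.05 was Nlrc5 (higher, 6.99% of all genes), and none was lower (3.48%). For H2-K1 the difference was 0.13 (95% interval -0.12 to 0.38), for H2-D1 0.07 (-0.18 to 0.33) and for B2m 0.02 (-0.18 to 0.23), so that falls larger than 0.18 lie outside the interval of each of them. The intervals of the class II chains are wider and reach -0.23 for H2-Eb1. The direction of H2-K1 turned within the 10 mice of the identifier series beginning with 9 (-0.03).

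The wider pathway gave no called gene. Of 64 further genes of antigen presentation (other MHC chains, chaperones and peptidases, the constitutive proteasome, transcription factors, receptors), 56 were tested and 0 were called by edgeR in any comparison. With an unadjusted p under 0.05, 4 were higher and 4 lower in Dp16_2xIFNRs mice against WT, 5 higher and 1 lower in Dp16 mice against WT, and 1 higher and 3 lower in Dp16_2xIFNRs against Dp16 mice. Over all genes the shares higher and lower were 8.44% and 8.6%, 5.61% and 3.97%, and 6.99% and 3.48% in these comparisons. DESeq2 called 1 of them, H2-Q1, in Dp16_2xIFNRs mice against WT and 0 in the other comparisons. The medians of the list were 0.02, 0.007 and 0.02 in the same order.

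Among the genes of this list with at least 1 CPM, the extremes were within 0.30 of 0 on the log2 scale. Rfx4, an RFX family member outside the class II complex, had 13.5, 12.7, 13.1, 13.4 and 13.4 CPM in Dp16_2xIFNRs mice, 14.1 to 18 CPM (median 14.7) in Dp16 mice and 13.9 to 16.9 CPM (median 15.1) in WT mice. All Dp16_2xIFNRs mice lay below all others, a pattern seen for 0.969% of all genes against WT and for 0.358% against Dp16 mice, with log2 differences of -0.19 from WT (edgeR adjusted p = 0.205) and -0.21 from Dp16 mice (adjusted p = 0.433). Psmb7, a subunit that the inducible Psmb10 replaces, differed by -0.18 in Dp16_2xIFNRs mice against WT and by -0.13 against Dp16 mice. Rfx1 differed by 0.23 in Dp16_2xIFNRs mice against WT and by 0.28 against Dp16 mice, and Ifi30, a thiol reductase of the class II pathway, by 0.27 against WT. In Dp16 mice against WT the extremes were Cd86, a co-stimulatory ligand, at 0.26, Ctss, the cathepsin that trims Cd74, at 0.24, Rfx2 at -0.23 and Ezh2, a histone methyltransferase, at -0.30. Ezh2 also stood among the highest in Dp16_2xIFNRs against Dp16 mice, at 0.20.

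Across single mice Cd74 varied together with the 3 class II chains, and H2-K1 with H2-D1 and B2m. Correlations were computed for 10 pairs on log2 CPM of 17 mice after removal of the group and sex means, with permutation tests adjusted over the 10 pairs, and 9 pairs had an adjusted p under 0.05. Cd74 correlated with H2-Aa at r = 0.965 (rho = 0.917), with H2-Eb1 at r = 0.957 (rho = 0.924) and with H2-Ab1 at r = 0.932 (rho = 0.941), each with a permutation p of 1e-05, the smallest that the permutations can give (adjusted 3.33e-05; Spearman adjusted p at most 6.67e-05). Without the 2 mice farthest from the median these were 0.922, 0.904 and 0.901. Without the 3 mice low in choroid plexus markers they were 0.885, 0.822 and 0.89, and within the 10 mice of the series beginning with 9 they were 0.978, 0.979 and 0.968.

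In class I, H2-K1 correlated with H2-D1 at r = 0.856 (permutation p = 9e-05, adjusted 0.000225; rho = 0.833, adjusted p 0.000275) and B2m with H2-K1 at r = 0.815 (permutation p = 0.00017, adjusted 0.00034; rho = 0.679, adjusted p 0.00652), with little movement without the 2 farthest mice (0.854 and 0.813). Psmb9 and Psmb8 correlated at r = 0.634 (permutation p = 0.00622, adjusted 0.0104; rho = 0.647, adjusted p 0.00877) and at 0.832 without the 2 farthest mice. Each switch was set against 1 gene of its class. Nlrc5 and H2-K1 correlated at r = 0.571 (permutation p = 0.0171, adjusted 0.0213; rho = 0.532, adjusted p 0.0378), 0.452 without the 2 farthest mice and 0.904 within the series beginning with 9. Ciita and Cd74 correlated at r = 0.617 (permutation p = 0.00886, adjusted 0.0127; rho = 0.517, adjusted p 0.0392), but r was 0.182 without the 2 farthest mice, so the relation rests on those mice. Rfx5 and Cd74 correlated at r = 0.425 (permutation p = 0.0872, adjusted 0.0872; rho = 0.404, adjusted p 0.108), the pair that did not pass. Cd74 and H2-K1, 1 gene from each class, correlated at r = 0.522 (permutation p = 0.0295, adjusted 0.0328; rho = 0.647, adjusted p 0.00877), and at 0.568 without the 2 farthest mice.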

How the data were processed

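Per the labels' protocols, RNA of the hippocampus was extracted with TRIzol, enriched for poly-A, made into strand-specific libraries (Tecan/Nugen kit) and sequenced as pairs. The submitters' processing notes name HISAT2 2.1.0, HTSeq 0.6.1, SAMtools 1.5, FastQC 0.11.5 and bcl2fastq, with the build GRCm38. How counting treated strand, and which length RPKM used, are not given in the sources used here. Raw gene counts of 17 libraries (30.4 to 33.1 M counts each) were deposited. The authors also deposited RPKM; recomputed from the counts, the length it implies was the same in every library for 32131 genes (largest relative spread 6.17e-14). Gene positions are those of GENCODE on GRCm38.

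Counts were fitted with edgeR 4.0.16 (R 4.3.3): filterByExpr with a minimum count of 10 (18983 genes), TMM scaling, a quasi-likelihood fit on genotype plus sex in all 17 libraries (13 residual degrees of freedom, common biological coefficient of variation 14.1%), and Benjamini-Hochberg adjustment over all genes, called under 0.05. CPM are relative to the TMM-scaled total, with a prior count of 2 on the log2 scale. Intervals and p-values measure the spread between these mice. Pair correlations used 100000 permutations. Code for the fits was tested on simulated counts. Alternatives were DESeq2 1.42.0 (its test, or its size factors within edgeR), limma 3.58.1 (voom, and trend on log2 RPKM with 0.1 or 1 added), no filter, no sex term, a replicate block, the identifier series, only the groups compared, and leaving out libraries. Fits with the choroid plexus or the border macrophage level as a covariate, and a fit of the 10 mice of 1 identifier series, were chosen after seeing the data.

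Genes of the set and all lists were chosen with earlier results of these data known. Values of each Dp16_2xIFNRs mouse, and the range and median of the groups of 6, are given for genes called, for those with an unadjusted p under 0.05 in any comparison and a mean of at least 1 CPM, and for 10 genes of known role; from the wider pathway, the 2 highest and 2 lowest log2 fold changes of each comparison among genes with at least 1 CPM are named, with genes called by an alternative added. Of the set, 20 genes overlap a gene on the other strand and 4 one on the same strand.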

Additional observations from a re-analysis of the deposited data

Results flagged for a closer look

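Each of the 32 genes was looked at in each of the 3 groups (96 in all) for a mouse far from the others of its group by Dixon's criterion, which chance alone meets in about 1 of 20. There were 7 such values, and 5 of them, all high values of class I pathway genes, came from the same mouse, WT replicate 3. It was also the highest WT mouse for H2-D1, H2-Q6, H2-Q7, H2-T23, Tap2, Erap1, Psmb8, Psmb10 and Psme1. The same held for the class II genes H2-Ab1, H2-Eb1 and H2-Oa and for Rfxap. None of these was flagged. This mouse was the lowest WT mouse for H2-T22. It had 49.9 CPM of H2-K1, where the other WT mice had 29.6 to 34.4 CPM, and 101 CPM of B2m, where they had 72.8 to 81.6 CPM. It had 9.64 CPM of H2-Q4 (others 4.64 to 6.03 CPM), 5.7 CPM of Tap1 (others 2.4 to 3.48 CPM) and 1.6 CPM of Nlrc5 (others 0.88 to 1.12 CPM). Without this mouse H2-K1 and H2-DMa joined Rfx5 among the called genes in Dp16_2xIFNRs mice against WT, at log2 differences of 0.56 (edgeR adjusted p = 0.00795) and 0.39 (adjusted p = 0.0496), while Nlrc5 stood at 0.97 (adjusted p = 0.0668). The border macrophage markers were lowest of all 17 mice in it, at 18.7 CPM. The other values far from their group were 16.1 CPM of Rfxank in WT replicate 4 (others 12.6 to 13.8 CPM) and 14.8 CPM of H2-T22 in Dp16_2xIFNRs replicate 1 (others 13.4 to 13.7 CPM).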

How the results depend on the processing

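The count of genes of the set called in Dp16_2xIFNRs mice against WT, 1 with the reported model, depended most on the processing. It was 5 with the DESeq2 test (H2-DMa, H2-Eb1, H2-K1, Nlrc5, Rfx5), 6 with no filter on low counts (Cd74, H2-Aa, H2-Ab1, H2-Eb1, H2-K1, Rfx5), 0 with limma-trend on RPKM and no filter, 4 without the 3 libraries low in choroid plexus markers, 7 with the choroid plexus level as a covariate and 0 within the 10 mice of the identifier series beginning with 9. Leaving out single libraries gave 0 to 3: 3 without WT replicate 3 or Dp16_2xIFNRs replicate 5, 2 without WT replicate 5, Dp16 replicate 1 or Dp16 replicate 6, and 0 without Dp16_2xIFNRs replicate 4. In Dp16 mice against WT the count was 0 with the identifier series as a covariate (Rfx5 at -0.45, adjusted p = 0.0514), 0 within the series beginning with 9 and 3 with the choroid plexus level as a covariate (H2-Ab1, H2-Eb1, Rfx5). Of the wider pathway, 1 gene was called in Dp16_2xIFNRs mice against WT with DESeq2 (H2-Q1), with no filter (H2-Q1) and without Dp16_2xIFNRs replicate 1 (Psmb7), so leaving out libraries gave 0 to 1. Rfx5 was called in 26 of 32 alternatives in Dp16_2xIFNRs mice and in 30 of 32 in Dp16 mice against WT. In Dp16_2xIFNRs mice it was lost with limma-trend on RPKM at 0.1 added (adjusted p = 0.0551) and at 1 added (0.0557), where H2-DMa was called in its place. The causes were not tested.

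Of 3071 values of single genes under alternatives, 184 differed in sign from the reported value, 163 of them where that value was within 1 SE of 0. The other 21, named here, were not called. With the border macrophage level as a covariate the sign turned in Dp16_2xIFNRs mice against WT for Cd74 (-0.44), H2-Aa (-0.38), H2-Ab1 (-0.20), H2-Eb1 (-0.16), H2-DMb1 (-0.42), Ciita (-0.30) and Tapbp (-0.15), and in Dp16 mice against WT for Cd74 (-0.52), H2-Aa (-0.48), H2-Ab1 (-0.30), H2-Eb1 (-0.16), H2-DMb1 (-0.20), Tapbp (-0.066) and Psmb8 (-0.007). Within the series beginning with 9 it turned for Psmb9 (-0.049), Psmb10 (0.026) and Nlrc5 (-0.075) in Dp16 mice against WT, for Tapbp (-0.002) in Dp16_2xIFNRs mice against WT, and for H2-K1 (-0.028) and H2-Q7 (-0.032) in Dp16_2xIFNRs against Dp16 mice. H2-Q7 also turned in that comparison without Dp16_2xIFNRs replicate 3 (-0.057), and leaving out other libraries gave up to 0.609. The number of the 10 gene pairs with an adjusted p under 0.05, 9 as reported, was 7 to 10 under the alternatives.

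With the replicate number as a block, 1, 1 and 0 genes were called in Dp16_2xIFNRs against WT, Dp16 against WT and Dp16_2xIFNRs against Dp16 mice, Rfx5 at -0.47 (edgeR adjusted p = 0.0275) and -0.50 (adjusted p = 0.0103). The number does not pair the mice: over 16 same-numbered pairs the correlation of deviations averaged -0.0155 (-0.245 to 0.361), and over 80 other pairs 0.00479, and 0 mice correlated best with their own number. At this depth counting error limits Ciita, H2-Oa and H2-Ob, where it alone gives a coefficient of variation of 24.8%, 32.4% and 23.8%.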

Other observations

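H2-Q1, a class I gene of the Qa region outside the set, was chosen after its values were seen. It had 2.26, 1.17, 0.571, 1.72 and 0.93 CPM in Dp16_2xIFNRs mice, 0.404 to 2.28 CPM (median 0.959) in Dp16 mice and 0.185 to 1.02 CPM (median 0.387) in WT mice. The groups overlapped: WT replicate 6 had 1.02 CPM, and the other 5 WT mice had at most 0.407 CPM, just above the lowest Dp16 mouse. The log2 difference from WT was 1.57 in Dp16_2xIFNRs mice (SE 0.48, edgeR adjusted p = 0.118) and 1.38 in Dp16 mice (SE 0.46, edgeR adjusted p = 0.307). H2-Q1 shares long stretches with the other Q genes, so the split of its reads is uncertain. Its neighbour H2-Q2 differed the other way, by -1.06 in Dp16_2xIFNRs mice against WT (edgeR adjusted p = 0.226).

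No gene of the set passed a test of whether the genotype difference varies with sex. In a model with an interaction of genotype and sex, 0 of the 32 genes and 0 of all genes had an adjusted p under 0.05 in edgeR, and 2 and 1 of the 32 had an unadjusted p under 0.05 in Dp16 and Dp16_2xIFNRs mice against WT (2.98% and 2.73% of all genes).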
